A study of Mus musculus with 6 samples.

Results

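Type VI collagen is described here through 5 genes, Col6a1, Col6a2, Col6a3, Col6a5 and Col6a6, each of which encodes 1 chain of the protein. They were taken by symbol from tables of 22007 gene symbols, and all 5 were listed. The data are RNA counts from corneas of male C57BL/6J mice. The OFBI group was awake when exposed to 1 open-field blast, from 350 g of C-4 set off 3 m away, and its corneas were collected 12 months later. The Naive group carries the same 12-month label, and its handling is not stated in the sources used here. Each group had 3 libraries, each from pooled corneas, and neither the corneas per pool nor the age at the blast is stated in the sources used here. The comparison of OFBI with Naive asks how matrix genes stood 12 months after the blast.

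Type VI collagen is a network collagen. In the usual molecule an α1, an α2 and a long α3 chain, encoded by Col6a1, Col6a2 and Col6a3, fold into 1 short triple helix flanked by globular von Willebrand factor A domains. The molecules pair, join into tetramers and line up outside the cell as beaded microfilaments. In the cornea these run between the striated collagen fibrils of the stroma, next to the keratocytes, the resident fibroblasts that make the matrix. The chains encoded by Col6a4, Col6a5 and Col6a6 resemble α3 and are thought to take its place in some tissues.

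The libraries stood apart by group in depth. The OFBI libraries held 1173472 to 3410476 estimated counts and the Naive libraries 41971752 to 47809779, so Naive libraries were on average 16.7 times as deep. The depth ranges of the groups do not overlap, so depth and group cannot be told apart. All 6 libraries carried batch number 4. The corneal keratin gene Krt12 had 8869 to 11102 CPM (estimated counts relative to library size, scaled by the TMM method) in the Naive and 22860 to 28769 CPM in the OFBI libraries. Kera, which encodes the keratocyte proteoglycan keratocan, was listed at 0 in OFBI replicates 1 and 3, had 6.40 CPM in OFBI replicate 2, and had 9.48 to 12.9 CPM in the Naive libraries. Taken as 12 counts over library size alone, a 0 allows up to 3.52 CPM in OFBI replicate 1 and 10.2 CPM in OFBI replicate 3. The latter limit lies within the Naive range. The log2 difference of Kera was -2.15 with SE 1.17 and did not pass (adjusted p = 0.254 in edgeR). OFBI replicate 3, the shallowest library, also held 644 CPM of the liver gene Alb, against 60.9 and 102 CPM in the other OFBI libraries and 0.604 to 4.14 CPM in the Naive libraries.

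Col6a1 and Col6a2 lie on the same strand of chromosome 10 (GRCm38, the build named in the submitters' processing notes), at 76708792 to 76726168 and 76595762 to 76623630 in GENCODE. Col6a3 lies on chromosome 1, at 90765923 to 90843971, where a gene model of the same strand, Gm36970, overlaps it and has no row in the count tables used here. Col6a6 and Col6a5 lie side by side on chromosome 9, at 105687809 to 105828160 and 105856078 to 105960643, with Col6a4 next to them at 105989454 to 106096783. The bases before the start of the 3 genes with high counts are printed because these are the genes that were called higher after OFBI. They come from RefSeq on GRCm38.p6, where all 5 members matched by symbol, and are written 5′ to 3′ on the gene's strand, the minus strand in each case. Each is the stretch of the window of 250 bases before a RefSeq start that lies upstream of every start annotated for the gene. Capitals mark a match to a searched motif.
Col6a1, chr10:76726169-76726294: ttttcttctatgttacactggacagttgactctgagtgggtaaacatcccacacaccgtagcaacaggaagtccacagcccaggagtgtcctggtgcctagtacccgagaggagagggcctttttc
Col6a2, chr10:76623631-76623880: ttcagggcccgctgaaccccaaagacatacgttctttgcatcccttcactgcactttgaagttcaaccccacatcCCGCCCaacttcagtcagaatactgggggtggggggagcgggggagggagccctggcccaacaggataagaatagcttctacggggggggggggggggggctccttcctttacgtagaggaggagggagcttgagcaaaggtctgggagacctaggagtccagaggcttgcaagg
Col6a3, chr1:90844002-90844221: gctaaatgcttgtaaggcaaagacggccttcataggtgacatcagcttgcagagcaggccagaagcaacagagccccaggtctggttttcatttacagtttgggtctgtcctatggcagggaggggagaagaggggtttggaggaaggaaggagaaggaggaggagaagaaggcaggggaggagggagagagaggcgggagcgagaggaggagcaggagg
The motifs searched on both strands of the whole window of 250 bases were the core of the TATA box (TATAA), the core of the CAAT box (CCAAT) and the core of the GC box (GGGCGG). Of 32851 windows in the RefSeq table, 22.8% held the TATA box core, 33.8% the CAAT box core and 32.7% the GC box core. None of the 3 was found before Col6a1 or Col6a3. Before Col6a2 only GGGCGG was found, on the opposite strand, 175 bases before the outer of its RefSeq starts and 3 times, a pair of them overlapping, in the window of the inner one. GGGCGG was also found before Col6a5 and Col6a6, and neither of the other motifs in any of the members' windows.

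Col6a1, Col6a2 and Col6a3 rose after OFBI, by 3.50-fold, 3.91-fold and 1.97-fold, while Col6a6 did not pass the test and Col6a5 had too few counts to be tested. Of 13941 genes tested with edgeR's quasi-likelihood test at a Benjamini-Hochberg adjusted p of 0.05, 8.41% were called higher and 10.4% lower (1173 and 1446 genes, or 866 and 2038 when scaled by library size alone), and 3 of the 4 tested members were higher. Among the 4224 genes averaging 50 CPM or more, as these 3 do, 17.2% were called higher. An unadjusted p below 0.05 was reached by 32.9% of the tested genes and by all 4 tested members. All 3 OFBI libraries lay above all 3 Naive libraries for these 3 chains, as they did for 16.4% of the tested genes. The median log2 fold change of all tested genes was -0.20 and over the 4224 more abundant genes it was 0.012.

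**Figure D1:**
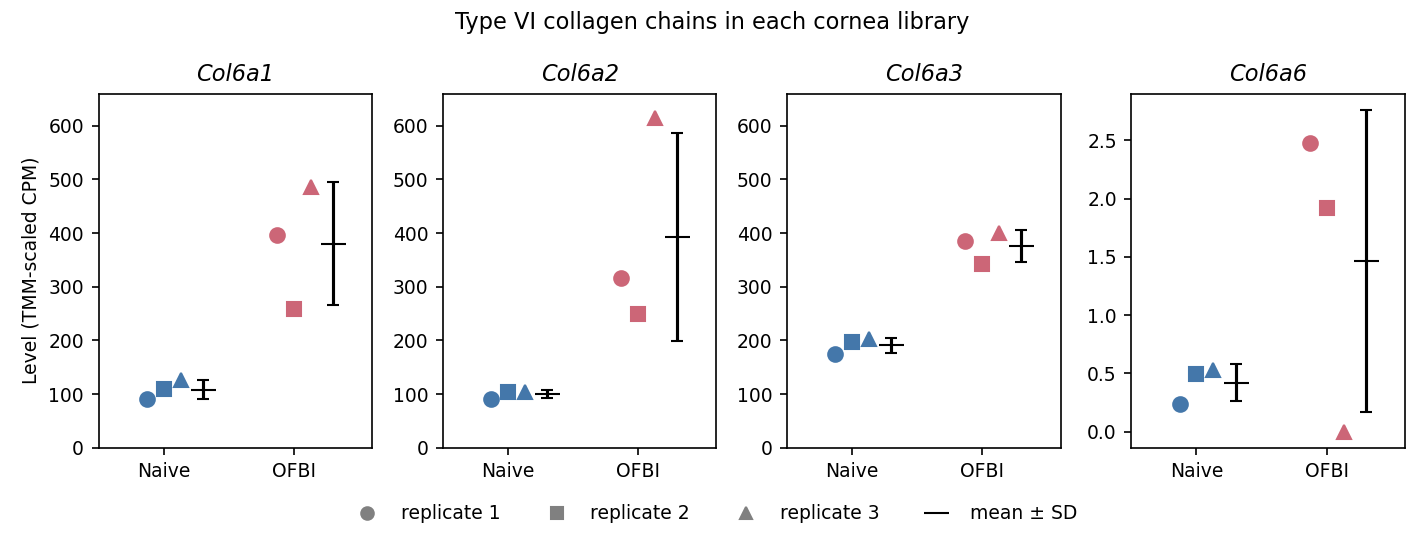
Level of 4 type VI collagen genes in TMM-scaled CPM (y axis, a separate scale for Col6a6) in the Naive and OFBI libraries (x axis), with 1 symbol per library, and the mean ± SD of 3 libraries in black. The OFBI libraries lie above the Naive libraries for Col6a1, Col6a2 and Col6a3 and not for Col6a6, where OFBI replicate 3 is at 0.

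Col6a1 encodes the α1 chain, without which the usual molecule does not form. Its level was 90.9, 109 and 126 CPM in Naive replicates 1, 2 and 3 and 397, 258 and 486 CPM in OFBI replicates 1, 2 and 3. The lowest OFBI library was 2.06 times the highest Naive library. The means were 109 ± 17.4 CPM in Naive and 381 ± 115 CPM in OFBI corneas (SD, n = 3), and the log2 difference was 1.81 with SE 0.26 (adjusted p = 0.0103 in edgeR).

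Col6a2 encodes the α2 chain. It had 91.1, 104 and 104 CPM in Naive replicates 1, 2 and 3. In OFBI replicates 1, 2 and 3 it had 316, 249 and 614 CPM, so OFBI replicate 3 stood far above the other OFBI pools. The means were 99.9 ± 7.57 and 393 ± 194 CPM (SD, n = 3), a log2 difference of 1.97 with SE 0.33 (adjusted p = 0.0152 in edgeR). Without OFBI replicate 3 it was 1.49 (SE 0.14, edgeR adjusted p = 0.00370), and the fold dropped from 3.91 to 2.81.

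Col6a3 encodes the α3 chain, the longest of the usual molecule, whose C-terminal end is cut off after secretion and known as endotrophin. It had 175, 196 and 202 CPM in Naive replicates 1, 2 and 3 and 385, 343 and 399 CPM in OFBI replicates 1, 2 and 3. The OFBI pools were close to one another, with a coefficient of variation of 7.82%, against 30.2% for Col6a1 and 49.4% for Col6a2. The means were 191 ± 14.4 and 376 ± 29.4 CPM (SD, n = 3), and the log2 difference was 0.97 with SE 0.13 (adjusted p = 0.00979 in edgeR).

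The gap between the groups was wider than counting error. The estimated counts behind these values were 427 to 1284 per chain in an OFBI library and 4603 to 9175 in a Naive library. If 4 counts stand for 1 fragment, which is inferred from the values, the OFBI libraries rest on 107 to 321 fragments per chain, and an exact 95% Poisson interval covers counting error only. For Col6a1 that interval ran from 224 to 297 CPM in OFBI replicate 2, the lowest, and from 119 to 132 CPM in Naive replicate 3, the highest. For Col6a2 the interval of OFBI replicate 3 was 523 to 715 CPM and that of OFBI replicate 1 was 278 to 357 CPM, so these pools differed by more than counting error. For Col6a3 the intervals of the 3 OFBI libraries overlapped.

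Within the OFBI group, counts of OFBI replicate 3 can be set against the mean of the other OFBI libraries, where depth alone gives a log2 ratio of -1.53. Col6a3 had a log2 ratio of -1.44, close to depth. Col6a1 had -1.01 and Col6a2 had -0.46, so their counts fell less than depth. The summed hepatocyte markers had 1.03 and the summed lymphocyte markers 0.71. Vim at -0.27, the summed cardiomyocyte markers at -0.44, the corneal epithelium markers at -1.27 and Krt12 at -1.31 also fell less than depth. So did the adipocyte markers at -0.85, but in the OFBI libraries that sum is the gene Fabp4 alone, at 2.56 to 4.68 CPM. Corneal endothelium markers were at -1.52, near depth. Markers of keratocytes (-1.73), skeletal muscle (-1.73), and smooth muscle and pericytes (-1.70) fell more than depth. Those of other fibroblasts (-1.94), macrophages (-1.82), vascular endothelium (-2.25) and Schwann cells (-2.19) did too. The part of other tissues' RNA in the type VI collagen values was not tested. With that library left out, Col6a1 and Col6a3 had log2 fold changes of 1.58 (edgeR adjusted p = 0.00702) and 0.92 (edgeR adjusted p = 0.00627).

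The genes called higher were richer in G and C than those called lower, with a median of 54.8% against 47.6% in the longest transcript. Col6a1, Col6a2 and Col6a3 had 56.7%, 55.2% and 54.5%, above 84.2%, 76.8% and 73.6% of the tested genes. With a trend on GC content and transcript length removed from each library, the log2 fold change was 1.32 for Col6a1 (edgeR adjusted p = 0.0183) and 1.52 for Col6a2 (edgeR adjusted p = 0.0262). For Col6a3 it was 0.48 (edgeR adjusted p = 0.0617), and the call was lost. In that fit 6.53% of genes were called higher. Leaving out Naive replicate 1, 2 or 3 left all 3 chains without a call in edgeR, with adjusted p of 0.0531 to 0.0776. The log2 fold changes were then at least 1.73 for Col6a1, 1.94 for Col6a2 and 0.95 for Col6a3, close to those of all 6 libraries. In those fits the unadjusted p of the chains was at most 0.00414, and DESeq2 and limma-voom called all 3 chains each time, with adjusted p of at most 0.00406.

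**Figure D2:**
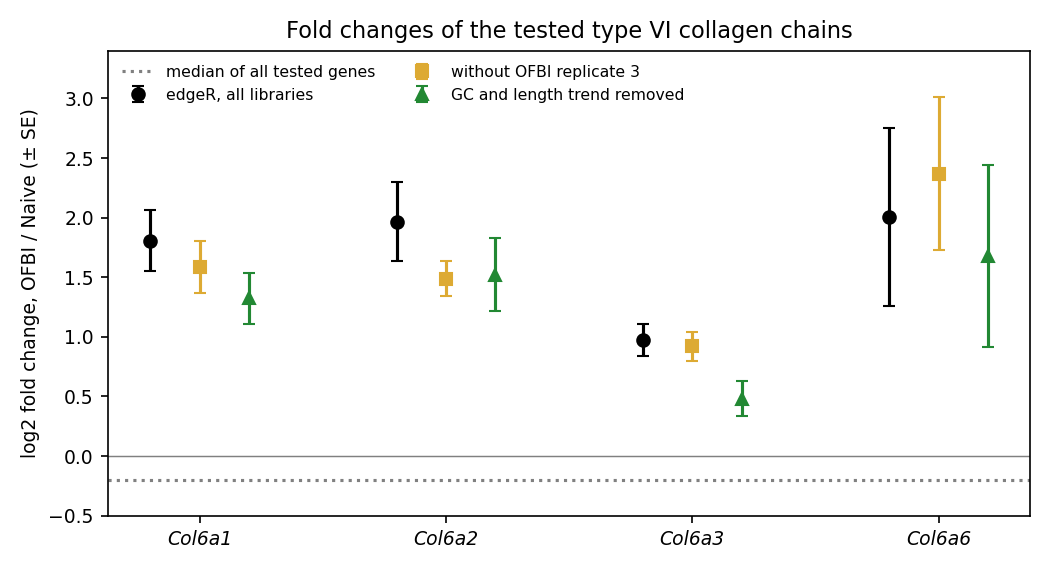
Log2 fold change of OFBI over Naive (y axis, ± SE) of the 4 tested type VI collagen genes (x axis) in the edgeR fit of all 6 libraries, without OFBI replicate 3, and with a GC and length trend removed. Col6a3 goes from 0.97 to 0.48 when the trend is removed, and the dotted line marks the median of all tested genes at -0.20.

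The α3-like chains were near the limit of detection. Col6a6 had estimated counts of 12, 23 and 24 in Naive replicates 1, 2 and 3 and of 8, 6 and 0 in OFBI replicates 1, 2 and 3. That is 0.237, 0.496 and 0.529 CPM in the Naive and 2.47, 1.92 and 0 CPM in the OFBI libraries, so the groups overlap. The log2 difference of 2.01 with SE 0.74 did not pass (adjusted p = 0.108 in edgeR). In fragments, the OFBI group had 3.5 and the Naive group 14.75, which were rounded to 4 and 15. These give a ratio of 4.46 per library size, with an exact 95% counting interval of 1.08 to 14.0. Rounding 3.5 up raises the ratio and its limits, so the lower limit near 1 is not read as a difference. Without OFBI replicate 3, the library at 0, the log2 fold change was 2.37 (edgeR adjusted p = 0.0423).

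Col6a5 had 8 estimated counts in Naive replicate 1 and 0 in the other 5 libraries. Col6a4, the remaining chain of the family and not one of the 5 genes, had 0, 4 and 12 counts in Naive replicates 1, 2 and 3 and 0 in every OFBI library. Neither had enough counts to be tested. The limit that 0 counts allow, taken as 3 fragments or 12 counts over the summed libraries of a group, was 1.51 CPM in OFBI and 0.0903 CPM in Naive corneas. A difference in either gene was not detectable at the OFBI depth, and no fold is given.

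Levels of different chains were compared as CPM per kilobase of exon sequence. In Naive corneas Col6a1 was at 24.8 ± 3.97, Col6a3 at 16.0 ± 1.21 and Col6a2 at 12.0 ± 0.910 CPM per kilobase (SD, n = 3). In OFBI corneas Col6a1 was at 86.9 ± 26.2, Col6a2 at 47.2 ± 23.3 and Col6a3 at 31.4 ± 2.46 CPM per kilobase (SD, n = 3). The values of neighbouring chains in this order did not overlap in the Naive libraries, while Col6a2 and Col6a3, and likewise Col6a1 and Col6a2, overlapped in the OFBI libraries. The order of Col6a2 and Col6a3 in Naive corneas depends on the length used. Per kilobase of the longest transcript, Col6a2 was at 20.3 ± 1.54 and Col6a3 at 18.9 ± 1.43, and their libraries overlapped.

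Among 21710 genes with a known length, Col6a1 ranked 1844 by level per kilobase in Naive and 480 in OFBI corneas. Col6a2 ranked 3850 and 987, and Col6a3 2967 and 1588. Of the level per kilobase summed over all 6 chains of the family, Col6a6 held at most 0.178% in any of the 6 libraries. The share of Col6a3 was 29.0% to 31.5% in the Naive and 15.3% to 24.3% in the OFBI libraries. That of Col6a2 was 21.5% to 23.6% in the Naive libraries and 23.6%, 25.4% and 33.8% in OFBI replicates 1, 2 and 3. Per kilobase of the longest transcript, the share of Col6a2 was 29.4% to 32.0% in the Naive libraries and 32.2%, 34.3% and 44.1% in OFBI replicates 1, 2 and 3, above the 41.9% of Col6a1 in OFBI replicate 3.

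The ratio of chains within a library does not depend on how the libraries are scaled. Col6a3 counts were 1.92, 1.80 and 1.61 times those of Col6a1 in Naive replicates 1, 2 and 3 and 0.970, 1.33 and 0.821 times in OFBI replicates 1, 2 and 3. The log2 ratio was 0.83 ± 0.13 in Naive and 0.027 ± 0.35 in OFBI corneas (SD, n = 3), a difference of -0.80 (SE 0.22). The groups did not overlap, and the two-sided exact permutation test gave p = 0.1 (0.2 adjusted over 4 ratios). Col6a3 thus stood lower against Col6a1 in each OFBI library than in any Naive library, and this test cannot go below 0.1 with 3 against 3.

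Col6a3 counts were 1.92, 1.88 and 1.94 times those of Col6a2 in the Naive and 1.22, 1.38 and 0.651 times in the OFBI libraries. The difference in log2 ratio was -0.89 (SE 0.33, exact permutation p = 0.1, 0.2 adjusted). The Naive libraries were nearly identical in this ratio, with an SD of 0.024 on the log2 scale, and the OFBI libraries spread over an SD of 0.58. Without OFBI replicate 3 the difference was -0.56.

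The counts of Col6a2 and Col6a1 kept a ratio near 1. This ratio is not corrected for length, and the genes have 8.326 and 4.38 kilobases of exon sequence, so it does not give relative transcript levels. Col6a2 counts were 1.00, 0.958 and 0.828 times those of Col6a1 in the Naive and 0.796, 0.964 and 1.26 times in the OFBI libraries. The difference in log2 ratio was 0.095 (SE 0.21, exact permutation p = 0.8), and it was -0.081 without OFBI replicate 3. The log2 ratio of Col6a5 plus Col6a6 to Col6a3 differed by 0.53 (SE 0.82, exact permutation p = 0.4) and changed sign with a smaller pseudocount, since it rests on at most 24 counts a library.

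**Figure D3:**
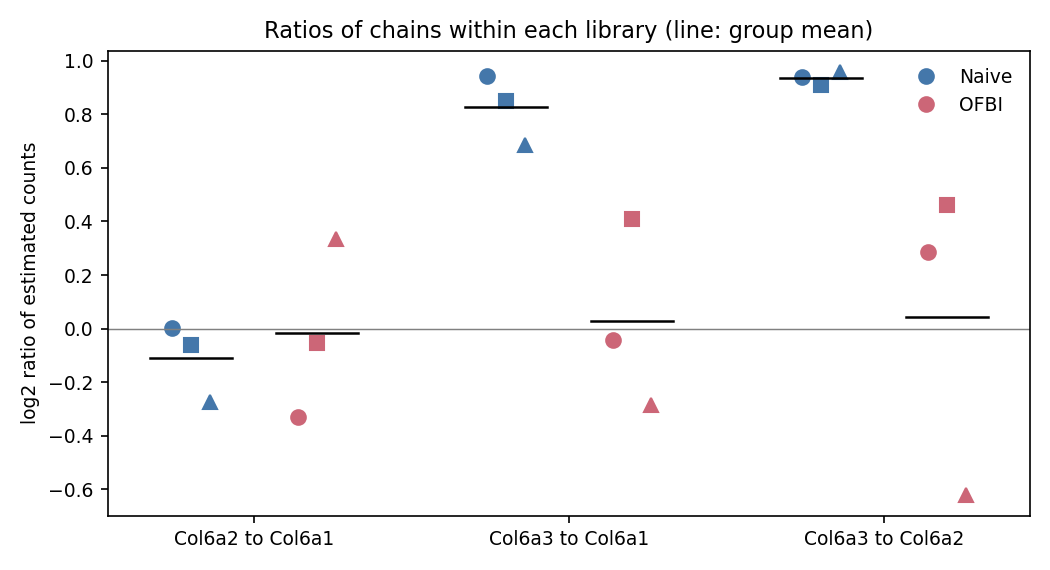
Log2 ratio of estimated counts of 2 chains (y axis) for 3 pairs of type VI collagen genes (x axis) in each Naive (blue) and OFBI (red) library, with symbols for replicates as in the plot of levels by library and a line at each group's mean. The OFBI libraries lie below the Naive libraries for both ratios of Col6a3, and the groups overlap for Col6a2 to Col6a1.

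The genes whose pattern over the 6 libraries was nearest to each chain were found by the root mean squared difference of log2 CPM, after each gene's mean was subtracted, among 10406 tested genes averaging 5 CPM or more. For Col6a1 they were Ano8, Fbxl19 and Borcs6, at 0.089, 0.10 and 0.11. For Col6a2 they were Vps37d, Frat2 and Aebp2, at 0.094, 0.11 and 0.12, and for Col6a3 Irf2bp1, Rplp2 and Vasp, at 0.035, 0.054 and 0.056. Col6a1 and Col6a2 were at 0.22 from each other, and Col6a2 ranked 44 in nearness to Col6a1. Col6a3 was at 0.45 from Col6a1 and at 0.56 from Col6a2. For Col6a6 the nearest were Rab11b, Msrb1 and Prrx1, at 0.63, 0.66 and 0.68. These are descriptions of 6 libraries that share the depth difference, and no test was made.

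Genes that act with type VI collagen were mixed. Of 50 tested genes on 4 lists, 9 rose, 3 fell and 38 missed the threshold. Their median was 0.077 on the log2 scale, against -0.20 over all genes. The share called in either direction over all genes was 18.8%. With the GC and length trend removed, 3 were higher and 8 lower, where 6.53% and 9.76% of all genes were. All 3 OFBI libraries lay above all 3 Naive libraries for 15 of the 50 genes and below for 11, against 16.4% and 29.9% over all genes. Without Naive replicate 1, 2 or 3, edgeR called 2, 0 and 2 of these genes higher and none lower.

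Among 17 tested matrix partners 5 rose and 2 fell, where 8.41% and 10.4% of all tested genes did. Their median log2 fold change was 0.11. The chains of type I collagen, the main fibril collagen of the stroma, are encoded by Col1a1 and Col1a2. Col1a1 was at 725 ± 160 CPM in Naive and 3398 ± 781 CPM in OFBI corneas (SD, n = 3), a log2 difference of 2.23 with SE 0.24 (adjusted p = 0.00666 in edgeR). Col1a2 had a log2 fold change of 1.66, with SE 0.18. Tnxb, which encodes the glycoprotein tenascin X, went from 32.0 ± 1.47 to 75.4 ± 3.90 CPM (SD, n = 3), which is 1.23 on the log2 scale. Vwa1, a von Willebrand factor A domain protein that binds type VI collagen, and Matn4, which encodes matrilin 4, a linker protein, had log2 fold changes of 1.59 and 0.98. The small proteoglycan gene Dcn fell, from 121, 116 and 115 CPM in Naive replicates 1, 2 and 3 to 34.3, 61.1 and 30.9 CPM in OFBI replicates 1, 2 and 3, a log2 difference of -1.46 with SE 0.27 (adjusted p = 0.0187 in edgeR). Its product, decorin, binds both type VI microfilaments and type I fibrils. Fn1, the gene of fibronectin, fell by 0.48 on the log2 scale. With the GC and length trend removed, Col1a1, Col1a2 and Matn4 were called higher at lower log2 values of 1.37, 1.15 and 0.89. Tnxb dropped to 0.23 (edgeR adjusted p = 0.521) and Vwa1 to 1.11 (edgeR adjusted p = 0.0626), and neither was called, while Hspg2, Col4a1 and Col4a2 joined Dcn and Fn1 as lower.

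Of 12 tested receptor genes 1 (Ddr1) rose and none fell, a share near the 8.41% of all genes called higher, and the median was -0.11 on the log2 scale. Ddr1 encodes a collagen-binding receptor tyrosine kinase of epithelial cells, and was at 523 ± 19.7 CPM in Naive and 997 ± 101 CPM in OFBI corneas (SD, n = 3), a log2 difference of 0.93 with SE 0.12 (adjusted p = 0.00979 in edgeR). With the GC and length trend removed it was 0.20 (edgeR adjusted p = 0.319). Itga2, the α2 integrin chain, was at 32.8 ± 3.22 CPM in Naive and 16.1 ± 5.55 CPM in OFBI corneas (SD, n = 3, edgeR adjusted p = 0.0607) and Antxr2, a receptor that takes up type VI collagen, had 1.68 (edgeR adjusted p = 0.118), and neither passed.

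Of 17 tested genes for folding and hydroxylation of collagen chains 2 rose and P3h4 fell, a share near the 18.8% of all genes called in either direction, and the median was -0.073 on the log2 scale. P3h3, a prolyl 3-hydroxylase family gene, had a log2 fold change of 2.13, and of 1.56 without OFBI replicate 3. Serpinh1, the collagen chaperone HSP47, had 0.91 (SE 0.25, edgeR adjusted p = 0.0445), and P3h4 had -0.87 (SE 0.24, edgeR adjusted p = 0.0459). With the GC and length trend removed, P3h3 and Serpinh1 were not called and P3h4 was still lower.

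Of 4 tested proteases 1 rose, where 8.41% of all tested genes were called higher, and 4 genes are too few to compare shares. Bmp1, which trims procollagens and has been linked to the release of endotrophin, was at 30.7 ± 4.42 CPM in Naive and 55.9 ± 8.22 CPM in OFBI corneas (SD, n = 3), a log2 difference of 0.87 with SE 0.21 (adjusted p = 0.0347 in edgeR). With the GC and length trend removed it was 0.30 (edgeR adjusted p = 0.453). Mmp2, a gelatinase, had 0.89 (edgeR adjusted p = 0.0663). Mmp11, which cuts the α3 chain, was listed at 0 in OFBI replicates 2 and 3 and had 2.07 to 2.52 CPM in the Naive libraries (edgeR adjusted p = 0.120). Taken as 12 counts over library size alone, a 0 allows up to 3.58 CPM in OFBI replicate 2 and 10.2 CPM in OFBI replicate 3. Both limits lie above the Naive values, so these zeros do not show a loss.

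**Figure D4:**
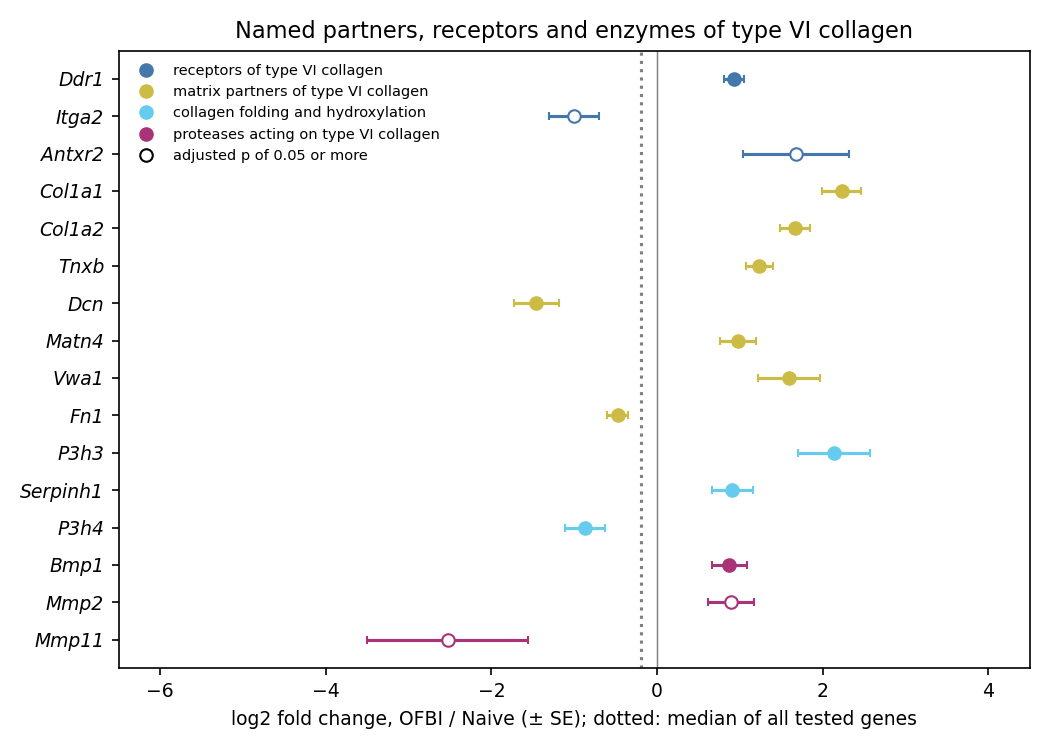
Log2 fold change of OFBI over Naive (x axis, ± SE) of the named receptors, matrix partners, folding enzymes and proteases of type VI collagen (y axis), coloured by list, with open symbols for an adjusted p of 0.05 or more. Col1a1 has the highest value at 2.23, and Dcn, Fn1 and P3h4 are the genes that fell.

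Type VI collagen is made by many connective tissues, so markers of the cells a cornea sample could hold are given beside it. The 10 keratocyte markers summed to 6928 to 7376 CPM in the Naive and 8398 to 10223 CPM in the OFBI libraries. Most of this was Aldh3a1, which corneal epithelium also expresses, at 6404 to 6861 CPM in Naive and 7696 to 9695 CPM in OFBI libraries. Of the 10 genes Thy1 and Vim rose and Dcn and Ptgds fell, where 8.41% and 10.4% of all tested genes did. The median log2 fold change of the 10 was -0.63. All OFBI libraries lay below all Naive libraries for 5 of them and above for 3, against 29.9% and 16.4% over all genes. The higher sum thus rests on Aldh3a1. The 8 smooth muscle and pericyte markers summed to 1108 to 1227 CPM in Naive and 1754 to 2047 CPM in OFBI libraries, led by Notch3, which the epithelium also expresses. Of these 8 genes 3 were called higher, and 2 with the GC and length trend removed. The shares over all genes were 8.41% and 6.53%. The 6 markers of fibroblasts of other connective tissue, led by Gsn, summed to 973 to 986 CPM in Naive and 876 to 1198 CPM in OFBI libraries, which overlap. Of 12 hepatocyte markers 5 were tested and 4 rose, where 8.41% of all tested genes were called higher. The others did not pass the count filter, which a gene can pass through its OFBI counts alone. All 12 summed to 30.9 to 42.0 CPM in Naive and 155 to 1037 CPM in OFBI libraries. Alb had the highest mean of them over the 6 libraries, but only 0.604 to 4.14 CPM in the Naive libraries. Of 10 cardiomyocyte markers 9 were tested and 4 rose. All 10 summed to 17.0 to 21.5 CPM in Naive and 18.9 to 215 CPM in OFBI libraries. Myh6 had the highest mean of those, but only 0.277 to 1.27 CPM in the Naive libraries. The 7 lymphocyte markers, led by Cd2, summed to 3.85 to 5.07 CPM in Naive and 25.9 to 199 CPM in OFBI libraries. Of these 7 genes 5 passed the count filter, and all 5 were called higher, also with the GC and length trend removed. The share called higher over all genes was 8.41%, and 6.53% with the trend removed. The 6 macrophage markers, led by Lyz2, summed to 82.0 to 85.1 and 91.2 to 136 CPM.

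The 8 markers of corneal epithelium, led by Krt12, summed to 28220 to 28872 CPM in Naive and 58239 to 77075 CPM in OFBI libraries. Of the 8, 4 were called higher, where 8.41% of all tested genes were. Of the 6 corneal endothelium markers, all tested, Slc4a11, Col8a1 and Tjp1 were called lower, where 10.4% of all tested genes were. The same genes were called lower with the GC and length trend removed, where 9.76% of all genes were. None was called higher. The 6 Schwann cell markers, led by Mbp, summed to 315 to 359 CPM in Naive and 150 to 235 CPM in OFBI libraries. Mbp alone had 265 to 312 CPM in Naive and 92.6 to 185 CPM in OFBI libraries, so the lower sum rests on it. Of the 6 genes only 1, Mbp, was called lower, where 10.4% of all tested genes were. None was called higher, and their median log2 fold change was 0.38. Skeletal muscle and vascular endothelium markers, led by Myh1 and Kdr, summed to 232 to 238 and 29.5 to 35.2 CPM in Naive and to 218 to 252 and 29.0 to 50.9 CPM in OFBI libraries. The adipocyte markers Adipoq, Plin1, Cfd, Lep, Retn and Cidec were at 0 in all OFBI libraries, and Fabp4 led that list at up to 4.68 CPM. In the Naive libraries the whole list, Fabp4 included, summed to only 1.17 to 2.01 CPM, and Retn was at 0 there too. The limit that 0 counts allow in OFBI corneas was 1.51 CPM, so these zeros do not show a loss. The part of these cell types in the type VI collagen values was not tested, and in bulk RNA a change in the number of cells and in RNA per cell cannot be told apart.

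Each chain was also set against single genes within each library, as a difference of log2 CPM. These reference genes were themselves called in edgeR, and the differences below carry their changes. Their log2 fold changes were 1.35 for Krt12, 1.67 for Vim and -1.46 for Dcn. Relative to Krt12, OFBI corneas differed from Naive corneas by 0.42 for Col6a1 and 0.51 for Col6a2, where the groups overlap, and by -0.38 for Col6a3, where they do not. Relative to Vim, which encodes vimentin of mesenchymal cells, the differences were 0.23 for Col6a1, 0.32 for Col6a2 and -0.57 for Col6a3. The groups overlap for Col6a1 and Col6a3 relative to Vim and not for Col6a2. Relative to Dcn the differences were 3.32, 3.41 and 2.52 for Col6a1, Col6a2 and Col6a3, and the groups do not overlap for any of them. That was fixed in advance, since every OFBI library lay above every Naive library for these chains and below for Dcn. The SD of these OFBI values relative to Dcn was 0.99, 1.14 and 0.64, and that of the Naive values 0.27, 0.15 and 0.15 (n = 3).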

How the data were processed

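Corneal RNA was made into KAPA stranded libraries, per the labels' protocols. The submitters' processing notes name FastQC, HISAT2, StringTie, DESeq2 and GRCm38. The annotation, the strand setting and the counting of multi-mapping reads were not stated in the sources used here. Estimated counts per gene symbol were deposited by the authors, not scaled for depth, with 1 library per table. Of values from 1 to 40, 39.4% to 50.4% were multiples of 4, from which 4 counts per fragment were inferred. Rows sharing a symbol were summed, and 26 symbols turned into dates were kept apart.

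All genes were fitted with edgeR 4.0.16 in R 4.3.3 (filterByExpr, TMM, quasi-likelihood, group only, two-sided, Benjamini-Hochberg). The counts were whole, so rounding was not needed. The SE is the log2 fold change over the square root of F. P-values measure the spread between pools. Alternatives used DESeq2 1.42.0, limma 3.58.1 and mgcv 1.9.3. Ratios used a pseudocount of 0.5. Lengths, GC and positions are from GENCODE mouse release 21, with 21710 symbols matched. The procedure was tested on simulated data. Libraries of a group differed by more than sampling noise (mean chi-square per gene 16.7 to 58.8).

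The members, lists and tests were chosen with earlier results of these data known. Named are all members, the 3 tested genes with the smallest p and any other called gene of each list, the 3 nearest genes per tested member, and the most abundant gene of each marker list, except that the leading gene and sum of the corneal endothelium list are not reported here. Genes named for their call under an alternative, called markers, and Kera, were chosen after their values were seen.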

Additional observations from a re-analysis of the deposited data

How the results depend on the processing

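Depth limits what can be said of Col6a4, Col6a5 and Col6a6. Over 32 alternatives the log2 fold change was 1.31 to 2.02 for Col6a1, 1.44 to 2.22 for Col6a2 and 0.48 to 1.05 for Col6a3, and 1.19 to 2.51 over 21 alternatives for Col6a6. No paired design is given, and same-numbered libraries did not deviate together (correlations -0.018 to 0.0078). With a replicate block edgeR called 540 genes higher and 253 lower, Col6a1, Col6a2 and Col6a3 still passed (1.78, 1.87 and 0.98), and 5 list genes were higher and 1 lower. With the block and the GC and length trend removed, the numbers were 342 and 189, 2 list genes were higher and 1 lower, and Col6a3 was at 0.48 (edgeR adjusted p = 0.212). With the trend alone removed, 3 and 8 list genes were called and Col6a3 was at 0.48.

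Over all genes DESeq2 called 1905 higher, no filter left 910 lower, and thinning the Naive or all libraries left 559 and 435 lower. Library size as the only scaling moved the median over all genes from -0.20 to -0.40 on the log2 scale, with 866 genes called higher and 2038 lower, against 1173 and 1446 with TMM. Of list genes, DESeq2 and library size each called 6 lower, counts divided by 4 called 5, and limma-voom and the thinned Naive libraries 1. Per kilobase of the longest transcript Col6a2 was at 80.0 in OFBI and 20.3 in Naive, and Col6a3 at 37.2 and 18.9. With a pseudocount of 0.1 the ratio of Col6a5 plus Col6a6 to Col6a3 differed by -0.27.

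Leaving out 1 library at a time, with edgeR, DESeq2 or limma-voom (the latter pair added after the data were seen), gave 0 to 2434 genes higher and 0 to 2904 lower, and 0 to 16 list genes higher and 0 to 12 lower. Without Naive replicate 1, 2 or 3 edgeR called 106, 0 and 104 genes of 12099, 12094 and 12113, with 2611, 2441 and 2615 at an unadjusted p below 0.05, and DESeq2 called 1988, 1537 and 1797 and limma-voom 2089, 1566 and 1900. Over the same fits Col6a1 ranged from 1.57 to 2.02, Col6a2 from 1.49 to 2.22, Col6a3 from 0.91 to 1.05 and Col6a6, which was not tested by edgeR or limma-voom without a Naive library, from 1.19 to 2.51. The log2 ratio of Col6a2 to Col6a1 differed by -0.081, without OFBI replicate 3, to 0.25, Col6a3 to Col6a1 by -0.99 to -0.64, Col6a3 to Col6a2 by -1.10 to -0.56, and Col6a5 plus Col6a6 to Col6a3 by 0.081 to 1.35. The causes were not tested.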
